A study of Mus musculus with 6 samples.

Results

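The synaptotagmin genes Syt1, Syt2, Syt3, Syt4, Syt5, Syt6, Syt7, Syt9, Syt10 and Syt11 were followed in the hippocampus of mice with a reduced dose of p300. Their members were every probe set on the array annotated to one of these 10 genes and to no other gene, which gave 26 probe sets of 45037 tested, for 10 of the 18193 genes read by a probe set of their own. Syt11 was read by 5 probe sets, Syt1, Syt6 and Syt7 by 4 each, Syt2 by 3, Syt4 by 2, and Syt3, Syt5, Syt9 and Syt10 by 1 each. The family was chosen on values of the genotype comparison and of the divergence between its probe sets in these same arrays. Both are therefore given as a description. The p-values, intervals and shares of genes printed beside them are not read as tests of these members.

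Synaptotagmins are membrane proteins of secretory vesicles and of the plasma membrane that carry a pair of C2 domains on their cytoplasmic side. In many of them these domains bind calcium and phospholipids, and by acting on the SNARE complex they couple calcium entry to membrane fusion. Syt1 is the main fast sensor for transmitter release in hippocampal pyramidal neurons, while other members serve slower forms of release, dense-core vesicles, receptor traffic or endocytosis.

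Hippocampal RNA came from p300+/- mice, which are heterozygous for a p300 deficiency in all tissues, and from their wild-type littermates. The animals were 3-month-old C57BL/6 females, with no treatment named. RNA of 4 animals was pooled for each Affymetrix mouse whole-genome array, with 3 arrays per genotype and 12 animals of each genotype in all. The sources used here give neither how the deficient allele was made nor the part of the gene it alters. Each array is a separate pool, so its spread is that between pools.

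Each deposited value was a log2 intensity minus the median of that probe set over the 6 arrays, so 0 is the middle of a probe set's own values and no level can be set against that of another probe set. No source gives the base of the logarithm, which was taken as 2. With 3 arrays per genotype, the median 95% interval of a synaptotagmin's difference reached 0.417 to either side. Ep300, the gene of p300, was at -0.26, -0.22 and -0.50 in p300+/- arrays 1 to 3, against 0.22, 0.38 and 0.40 in wild-type arrays 1 to 3. All p300+/- arrays were thus below all wild-type arrays, at a log2 difference of -0.66 ± 0.127 (SE; limma, adjusted p of 0.9999), and whether this probe set lies in the altered part of the gene is not known here. One array of each genotype, p300+/- 3 and wild-type 2, stood apart from the rest, with column standard deviations of 0.29 and 0.331 over all probe sets in the table where the other 4 had 0.182 to 0.208. Of the 7 measured markers of pyramidal and granule neurons, 6 had a probe set in the coarse level class of 8 to 16 (log2 intensity), as did 6 of 6 interneuron markers and 5 of 5 astrocyte markers. That class was read from the rounding of the values, and it held 27.6% of all probe sets and 14 of the 26 synaptotagmin probe sets.

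Across the family the genotypes overlapped in 25 of 26 probe sets. Syt10 was the only member whose 3 p300+/- arrays all lay above the 3 wild-type arrays, where 3.19% of all probe sets lay so, 2.20% lay wholly below and 5.39% did one or the other. The log2 fold change was above 0 in 19 of 26 members, against 51.7% of all probe sets, with a median of 0.073 in the family and 0.0057 over the whole array. The lowest was -0.33 (Syt1, 1438282_at) and the highest 0.64 (Syt1, 1431191_a_at), so a single gene held both ends. For 20 of the 26 the difference was within 0.2 of 0. Past an adjusted p of 0.05 (limma, Benjamini-Hochberg over 45037 probe sets) there were 0 members and 0 of all probe sets (0%), and at an unadjusted p under 0.05 there were 1 member, Syt10, and 550 of all probe sets (1.22%). The family was chosen with this contrast in view, so nothing is read from these counts. Without wild-type 2 the family median was -0.02 and 11 members were above 0, in place of 0.073 and 19.

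**Figure D1:**
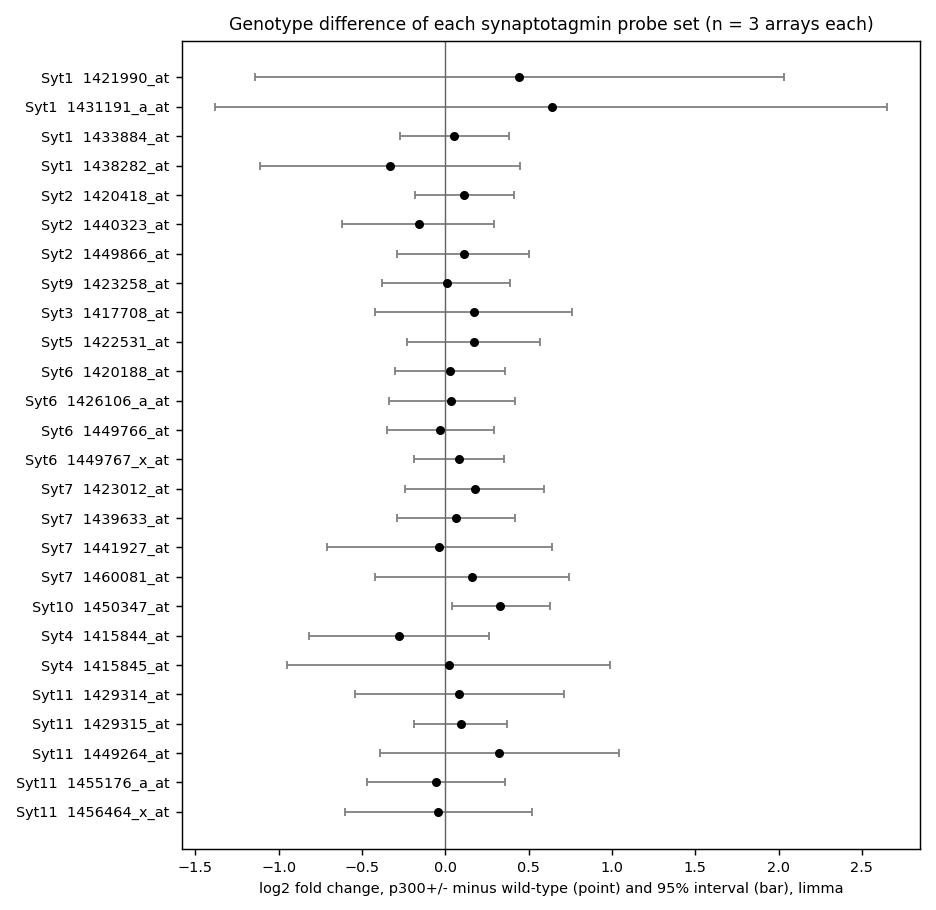
Log2 fold change of p300+/- minus wild-type (horizontal axis) for each of the 26 synaptotagmin probe sets (rows), with 3 arrays per genotype; points are the estimates and bars the 95% intervals from limma. The interval includes 0 for 25 probe sets, Syt10 at 0.33 is the exception, and the longest bars belong to Syt1 1431191_a_at and 1421990_at.

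The fast calcium sensors were led by Syt1, whose probe sets gave different accounts of the same arrays. The RefSeq promoter windows of Syt1 are shown first because this gene has 2 annotated starts and the widest median divergence in the family. The window of Syt11 is shown because its 1429314_at and 1449264_at were, outside Syt1, the members most like Syt1 1431191_a_at. Each window runs from 250 bases before to 50 after an annotated start, on the minus strand of GRCm38.p6 as RefSeq gives it, 5' to 3'. Capitals mark, on either strand, the GC box (GGGCGG), the CCAAT box (the letters CCAAT) and the half-site of the cAMP response element (TGACG).
Syt1 first window, chr10:109010926-109011225: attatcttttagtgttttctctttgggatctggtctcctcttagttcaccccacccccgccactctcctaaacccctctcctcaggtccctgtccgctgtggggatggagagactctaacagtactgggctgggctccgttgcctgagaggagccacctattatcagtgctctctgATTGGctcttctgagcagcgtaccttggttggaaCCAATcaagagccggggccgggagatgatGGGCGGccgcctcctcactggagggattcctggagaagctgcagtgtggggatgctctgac
Syt1 second window, chr10:109009062-109009361: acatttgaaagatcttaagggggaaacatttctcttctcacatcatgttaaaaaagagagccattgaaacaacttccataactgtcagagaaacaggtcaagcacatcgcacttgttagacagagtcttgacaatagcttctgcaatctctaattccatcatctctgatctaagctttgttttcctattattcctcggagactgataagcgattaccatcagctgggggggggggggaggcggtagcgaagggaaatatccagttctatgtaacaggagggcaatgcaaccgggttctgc
Syt11, chr3:88772550-88772849: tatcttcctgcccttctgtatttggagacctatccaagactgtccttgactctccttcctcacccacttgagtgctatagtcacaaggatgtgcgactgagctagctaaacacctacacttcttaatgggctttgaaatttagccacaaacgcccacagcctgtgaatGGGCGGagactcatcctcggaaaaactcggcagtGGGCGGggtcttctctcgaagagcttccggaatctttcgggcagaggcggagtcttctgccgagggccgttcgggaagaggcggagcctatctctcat

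The first Syt1 window held 2 CCAAT boxes and 1 GC box, while the second held neither and had a lower GC content (44% against 56.7%). The Syt11 window held 2 GC boxes. Over 32851 RefSeq windows of this length 35.7% held a GC box, 37.4% a CCAAT box and 20.8% a half-site. Windows were used for 7 of the 10 genes, 11 in all. Of these, 9 held a GC box, 3 a CCAAT box and 2 a half-site. The first and second windows of Syt6 overlap over most of their length and share GC boxes, so the 11 are not independent. The full cAMP response element (TGACGTCA, in 1.79% of all windows) and the TATA box (TATAAA, in 13.6%) were each in 0 of them. Each motif was searched on both strands. The sources used here do not say which part of the transcript each Syt1 probe set reads.

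Syt1 probe set 1431191_a_at was at 0.19, 0.88 and -1.72 in p300+/- arrays 1 to 3, against -0.19, -2.58 and 0.22 in wild-type arrays 1 to 3. Probe set 1421990_at followed it closely, at 0.069, 0.83 and -1.25 in p300+/- and -0.069, -1.91 and 0.31 in wild-type arrays. In both, p300+/- 3 and wild-type 2 were far below the other 4 arrays and p300+/- 2 was the highest, so each genotype held high and low arrays and the groups overlapped. The third, 1433884_at, stayed between -0.24 and 0.13 in all arrays, at 0.09, 0.13 and -0.24 in p300+/- and 0.014, -0.18 and -0.014 in wild-type. It had its lowest values in the same 2 arrays, p300+/- 3 and wild-type 2, but over a span of 0.37 where 1431191_a_at spanned 3.46. The fourth, 1438282_at, was at 0.55, -0.43 and -0.34 in p300+/- arrays, against 0.76, -0.28 and 0.28 in wild-type arrays. It was highest in wild-type 1 and lowest in p300+/- 2, the array in which the first 2 were highest.

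The genotype means of Syt1 1431191_a_at were -0.22 ± 1.35 in p300+/- and -0.85 ± 1.51 in wild-type (SD, n = 3 each), a log2 fold change of 0.64 with a 95% interval of -1.38 to 2.65. That difference turned to -0.23 without wild-type 2 and was 1.39 without p300+/- 3, so its sign rested on single arrays. Probe set 1421990_at gave 0.44 (95% interval -1.14 to 2.03) and ran from -0.23 to 1.01 as single arrays were left out, the ends again being wild-type 2 and p300+/- 3. For 1433884_at the value was 0.053 (-0.27 to 0.38), the narrowest interval of the Syt1 probe sets. Probe set 1438282_at gave -0.33 (-1.11 to 0.45). The deviations of all 4 were smaller between genotypes than within them.

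Syt2, a fast sensor known from brainstem and cerebellar synapses and from parvalbumin interneurons of the forebrain, varied much less. Probe set 1420418_at was at 0.15, 0.15 and -0.11 in p300+/- arrays, against 0.024, -0.15 and -0.024 in wild-type arrays. Probe set 1449866_at was at -0.18, 0.37 and -0.012 in p300+/- and 0.069, -0.22 and 0.012 in wild-type arrays, and 1440323_at at 0.14, -0.12 and -0.50 in p300+/- and 0.12, -0.26 and 0.15 in wild-type arrays. The genotypes overlapped in all 3 probe sets, and their differences were 0.11, 0.11 and -0.16 in the same order. Wild-type 2 was the lowest array of the first 2 and p300+/- 3 that of the third. Syt9, a fast sensor of limbic and striatal neurons, had 1 probe set (1423258_at) at -0.15, 0.24 and -0.066 in p300+/- arrays, against 0.19, -0.26 and 0.066 in wild-type arrays. Its genotype means were 0.0084 ± 0.206 and -0.00023 ± 0.229 (p300+/- and wild-type, SD, n = 3 each), a difference of 0.0087 (95% interval -0.38 to 0.39) that was -0.043 after quantile normalization.

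Among the high-affinity sensors, Syt7, which serves asynchronous release and synaptic facilitation, was read by 4 probe sets. Probe set 1441927_at was at 0.091, 0.035 and -0.82 in p300+/- arrays, against 0.084, -0.64 and -0.035 in wild-type arrays. Probe set 1460081_at was at 0.25, -0.088 and -0.12 in p300+/- and 0.088, -0.72 and 0.19 in wild-type arrays. Wild-type 2 was low in both, whereas p300+/- 3 was low in the first and near p300+/- 2 in the second. The remaining 2, 1423012_at and 1439633_at, ran from -0.24 to 0.33 and from -0.22 to 0.25 over the 6 arrays, again with p300+/- 3 and wild-type 2 as the lowest pair. The 4 genotype differences of Syt7 were -0.035, 0.16, 0.18 and 0.065 in the order named, and every 95% interval included 0.

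Syt3, a high-affinity sensor known for the removal of AMPA receptors from synapses, was at 0.27, -0.39 and 0.093 in p300+/- arrays and at 0.19, -0.64 and -0.093 in wild-type arrays (1417708_at). The second array of each genotype was lowest, and the difference of 0.17 (95% interval -0.42 to 0.76) was -0.06 without wild-type 2. Syt5, a protein of dense-core vesicles, was at 0.14, -0.19 and 0.44 in p300+/- and at 0.045, -0.045 and -0.11 in wild-type arrays (1422531_at). Its highest and lowest arrays were both p300+/-, with a difference of 0.17 (-0.23 to 0.57) that was 0.013 without p300+/- 3. Syt6, studied mainly in the acrosome reaction of sperm, had 4 probe sets that kept between -0.23 and 0.42. Of these, 1420188_at and 1449767_x_at were the only members in the lowest level class, 2 to 4. All 4 had p300+/- 3 and wild-type 2 as their highest 2 arrays, the reverse of Syt1 1431191_a_at, and their differences ran from -0.03 to 0.081.

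Syt10, a calcium sensor known for the secretion of insulin-like growth factor from olfactory bulb neurons, was the member in which the genotypes did not overlap. Its window is shown because it is that member, on the minus strand of GRCm38.p6 and with the same motifs in capitals.
Syt10, chr15:89841811-89842110: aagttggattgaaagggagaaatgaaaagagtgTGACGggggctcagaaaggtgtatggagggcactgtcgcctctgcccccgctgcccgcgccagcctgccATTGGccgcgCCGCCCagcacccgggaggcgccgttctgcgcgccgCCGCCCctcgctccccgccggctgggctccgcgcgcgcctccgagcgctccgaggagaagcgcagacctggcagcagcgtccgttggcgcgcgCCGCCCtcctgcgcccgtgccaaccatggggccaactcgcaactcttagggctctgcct

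The window of Syt10 held 1 cAMP response element half-site, 1 CCAAT box and 3 GC boxes. The single probe set (1450347_at) was at 0.049, 0.36 and 0.28 in p300+/- arrays, against -0.19, -0.076 and -0.049 in wild-type arrays. The lowest p300+/- array stood 0.049 above its median and the highest wild-type array 0.049 below it, so the gap between groups was smaller than the range within p300+/-. Genotype means were 0.23 ± 0.161 in p300+/- and -0.11 ± 0.0766 in wild-type (SD, n = 3 each), a log2 fold change of 0.33 ± 0.126 (SE) with a 95% interval of 0.039 to 0.63, or 1.26-fold if the base is 2. With an array left out the difference ran from 0.27 to 0.42, and it was 0.32 without both p300+/- 3 and wild-type 2. Since the groups did not overlap, leaving out arrays could not turn its sign. The 95% interval included 0 without p300+/- 2, without p300+/- 3, without wild-type 1, and without both p300+/- 3 and wild-type 2.

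Syt4 and Syt11 are close relatives whose first C2 domain does not bind calcium in the usual way. Syt4 is induced by neuronal activity and is found on vesicles that carry neurotrophins. Its probe set 1415845_at was at -0.016, -0.10 and 1.09 in p300+/- arrays, against 0.016, 1.08 and -0.19 in wild-type arrays. Here p300+/- 3 and wild-type 2 stood far above the other 4 arrays, the reverse of their place in Syt1 1431191_a_at. Probe set 1415844_at gave another order, at -0.68, 0.28 and -0.23 in p300+/- and -0.0092, 0.0092 and 0.21 in wild-type arrays, with p300+/- 1 lowest. The genotype differences were 0.024 (95% interval -0.95 to 0.99) and -0.28 (-0.82 to 0.26), and that of 1415845_at ran from -0.36 without p300+/- 3 to 0.41 without wild-type 2.

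Syt11, which restrains endocytosis and is a substrate of the ubiquitin ligase parkin, was read by 5 probe sets, all in the level class of 8 to 16. Probe set 1449264_at was at 0.092, 0.32 and -0.43 in p300+/- arrays, against 0.037, -0.98 and -0.037 in wild-type arrays. Probe set 1429314_at was at 0.056, 0.073 and -0.62 in p300+/- and -0.037, -0.74 and 0.037 in wild-type arrays, and 1456464_x_at at -0.03, 0.35 and -0.54 in p300+/- and 0.03, -0.31 and 0.19 in wild-type arrays. These 3 had p300+/- 3 and wild-type 2 as their lowest pair, as did Syt1 1431191_a_at. The other 2 moved less, although 1455176_a_at had the same lowest pair, with -0.10 in p300+/- 3. Probe set 1429315_at was at 0.024, 0.0091 and -0.0091 in p300+/- and 0.032, -0.25 and -0.035 in wild-type arrays, and 1455176_a_at ran from -0.36 in wild-type 2 to 0.27 in wild-type 1. Genotype differences of Syt11 lay between -0.058 and 0.32, and the largest, of 1449264_at, was -0.0035 without wild-type 2.

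**Figure D2:**
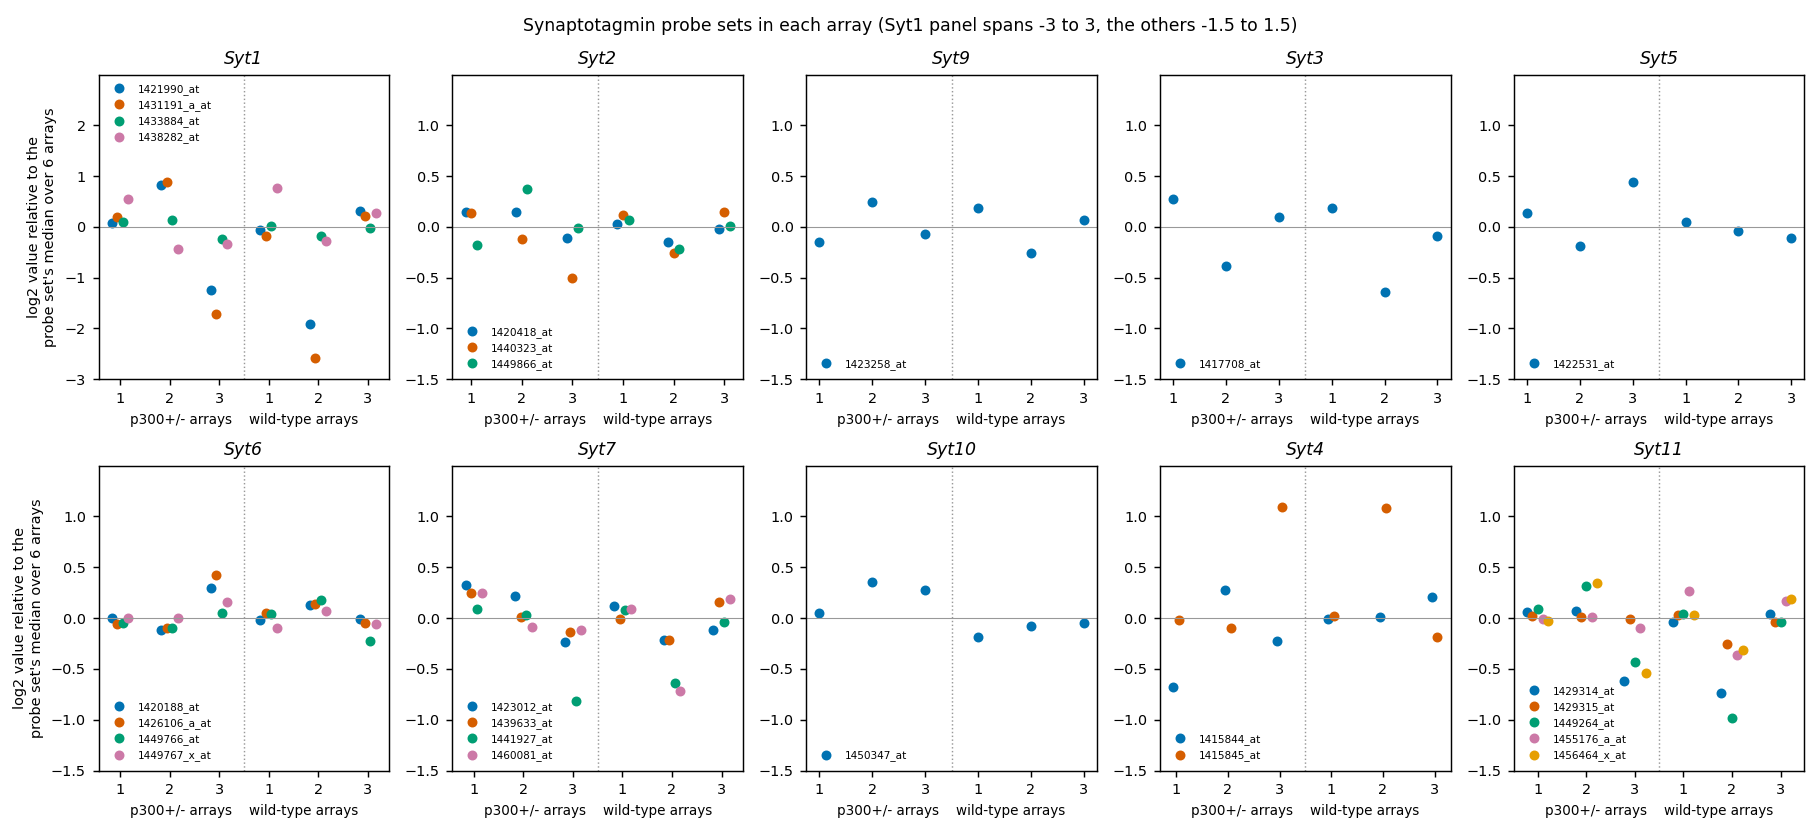
Log2 value relative to each probe set's median over the 6 arrays (vertical axis) for the 26 synaptotagmin probe sets, in a panel per gene, with p300+/- arrays 1 to 3 on the left and wild-type arrays 1 to 3 on the right; colours stand for probe sets of a gene and points are shifted sideways so that they do not hide each other. Syt1 1431191_a_at falls to -1.72 in p300+/- 3 and -2.58 in wild-type 2, Syt4 1415845_at reaches 1.09 and 1.08 in the same arrays, and 1433884_at of Syt1 stays between -0.24 and 0.13.

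How far probe sets of one gene diverged was measured as the highest minus the lowest of them in each array, for the 6 genes with more than 1. By the median over the 6 arrays Syt1 diverged most, at 1.13, although Syt4 was wider in p300+/- 1 and wild-type 3. The spread of Syt1 was 0.479, 1.31 and 1.48 in p300+/- arrays 1 to 3, against 0.955, 2.41 and 0.32 in wild-type arrays 1 to 3. The median over all 1093 genes with 4 probe sets was 0.299, 0.312 and 0.408 in p300+/- and 0.242, 0.469 and 0.312 in wild-type arrays. In wild-type 2 a spread as wide as that of Syt1 was found in 0.366% of those genes and in p300+/- 3 in 0.457%, whereas in wild-type 3 it was found in 48.1%. The upper end was 1433884_at and the lower end 1431191_a_at in both p300+/- 3 and wild-type 2, while in p300+/- 2 the order was turned, with 1431191_a_at highest and 1438282_at lowest.

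Syt4 came next by that median, at 0.53. The spread between its 2 probe sets was 0.661, 0.375 and 1.32 in p300+/- arrays and 0.0247, 1.07 and 0.399 in wild-type arrays. Among 4695 genes with 2 probe sets a spread as wide was found in 0.149% in p300+/- 3 and 1.19% in wild-type 2, but in 86.6% in wild-type 1. Probe set 1415845_at was the higher in p300+/- 1, p300+/- 3, wild-type 1 and wild-type 2, and the lower in p300+/- 2 and wild-type 3.

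The remaining 4 genes were nearer the rest of the array. The median spread over the 6 arrays was 0.251 for Syt2 (0.255 over 2366 genes with 3 probe sets), 0.304 for Syt7 and 0.132 for Syt6 (0.335 over genes with 4), and 0.326 for Syt11 (0.411 over 463 genes with 5). Syt6 was thus the tightest, and 99.1% of genes with 4 probe sets had a median spread as wide as its own or wider. Their widest single values were 0.734 for Syt11 in wild-type 2 and 0.70 for Syt7, 0.49 for Syt2 and 0.363 for Syt6 in p300+/- 3. Over the 6 genes the median spread was 0.287, 0.36 and 0.654 in p300+/- arrays and 0.134, 0.616 and 0.268 in wild-type arrays, against 0.19, 0.196 and 0.26 in p300+/- and 0.156, 0.303 and 0.21 in wild-type arrays over all 9010 genes with more than 1 probe set. The arrays with the widest spread in the family were thus also those with the widest spread over all genes, and they were of different genotype.

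**Figure D3:**
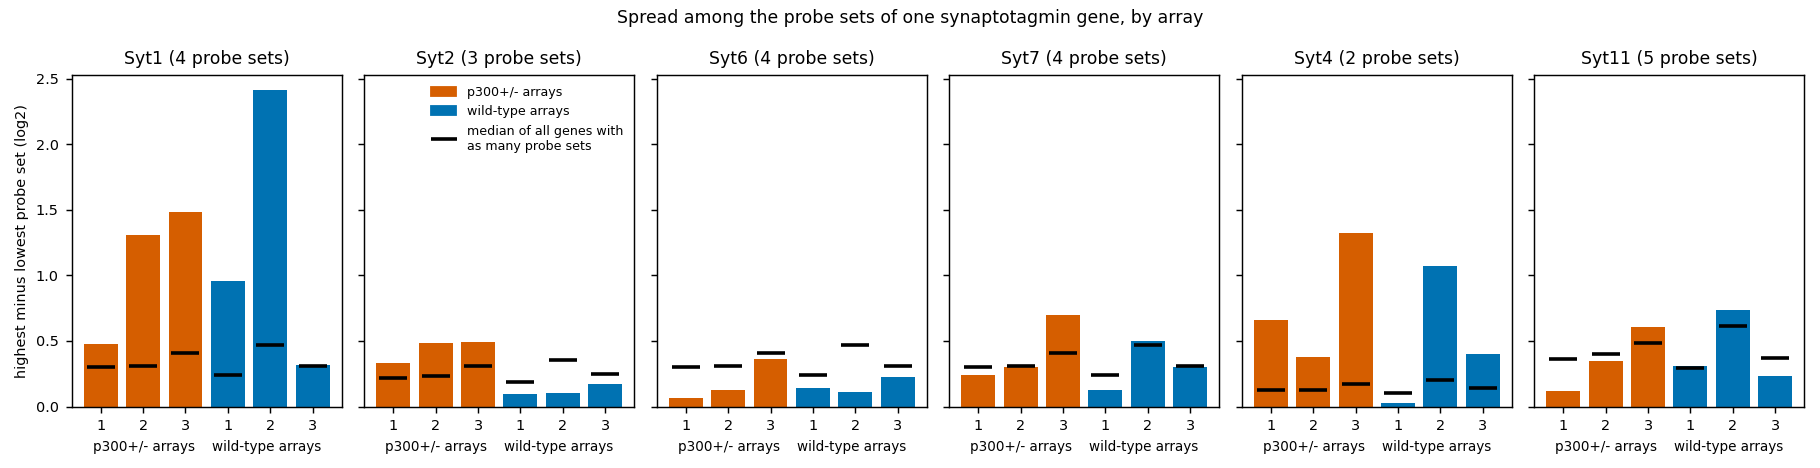
Highest minus lowest probe set value of a gene (vertical axis, log2) in each p300+/- array (orange, left) and wild-type array (blue, right) for the 6 synaptotagmin genes with more than 1 probe set; black marks give the median over all genes with as many probe sets. Syt1 reaches 2.41 in wild-type 2 and Syt4 1.32 in p300+/- 3, while Syt6 stays at or below 0.363.

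The design record of the probe sets, which played no part in their choice, was compared with the divergence, which did. Per the platform annotation, 6 pairs of synaptotagmin probe sets were drawn from a single sequence record, 3 of them in Syt6 and 1 each in Syt2, Syt4 and Syt11, and 26 pairs were from different records. For the same-record pairs the median absolute difference over the 6 arrays ran from 0.0581 to 0.53. Its median was 0.0778, against 0.145 for pairs of different records. The groups drew on different genes, since every Syt1 pair was from different records. Within Syt6 the same-record pairs were at 0.0581, 0.068 and 0.11, and the others at 0.0263, 0.0527 and 0.0898. In Syt2 and Syt11 the same-record pair was the narrowest of its gene, at 0.0848 and 0.0708. Over the whole array these medians were 0.14 for 5219 same-record pairs and 0.164 for 20112 others. Syt4 was the widest same-record pair of the family at 0.53, and 0.556% of all same-record pairs on the array were as wide. The Syt11 pair from a single record, 1429314_at and 1429315_at, differed by -0.61 in p300+/- 3 and -0.49 in wild-type 2, and by 0.072 or less in size in the other 4 arrays. Pairs of a gene share probe sets, so they are not independent of each other.

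The differences between probe sets of a gene were also set against genotype. For Syt1, 1431191_a_at minus 1433884_at was 0.10, 0.75 and -1.48 in p300+/- arrays, against -0.21, -2.41 and 0.23 in wild-type arrays, with means of -0.21 ± 1.15 and -0.80 ± 1.41 (p300+/- and wild-type, SD, n = 3 each). For Syt4, 1415844_at minus 1415845_at was -0.66, 0.37 and -1.32 in p300+/- and -0.025, -1.07 and 0.40 in wild-type arrays, with means of -0.54 ± 0.857 and -0.23 ± 0.757. In both genes the genotypes overlapped, and the difference between genotype means was smaller than the spread within each.

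The place of the family's extremes was uneven among arrays. Wild-type 2 held the lowest value of 12 of the 26 members, where it held the lowest value of 18.4% of all probe sets, and p300+/- 3 held the lowest of 5 (17.2% of all). Wild-type 2 and p300+/- 3 together held the lowest pair of values in 13 of 26 members, against 15.8% of all probe sets, and the highest pair in 5, against 21.4%. The 13 were 3 of Syt1, 2 of Syt2, all 4 of Syt7 and 4 of Syt11. The 5 were all 4 of Syt6 and 1415845_at of Syt4. Values below -0.5 were found for 6 members in p300+/- 3 (5.13% of all probe sets), 7 in wild-type 2 (6.83%) and 1 in p300+/- 1 (1.18%), and for none in the other 3 arrays.

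By likeness over the 6 arrays, the genes outside the family nearest to Syt1 1431191_a_at were Tef (1450184_s_at, Pearson r = 0.997), a transcription factor of the clock output, Sos1 (1421884_at, 0.996), an exchange factor for Ras, Ptk2b (1442927_at, 0.996), a calcium-dependent tyrosine kinase, Nr3c1 (1421866_at, 0.995), the glucocorticoid receptor, and Rasgrp1 (1421176_at, 0.995), another exchange factor for Ras. All arrays are shared and 2 of the 6 dominate these values, so the figures are a description. Ptk2b 1442927_at was at -1.49 in p300+/- 3 and -2.40 in wild-type 2, but its other probe set, 1434653_at, was at -0.31 and -0.69 there. Tef 1450184_s_at was at -1.22 and -2.06 in these arrays and 1424175_at of the same gene at -0.32 and -0.29. Nr3c1 1421866_at was at -1.15 and -1.59, and its probe set 1460303_at at 0.18 and 0.31. Rasgrp1 held both kinds, with 1431749_a_at at -1.81 and -2.87 and 1434295_at at -0.37 and -0.12. Each gene was picked by its probe set most like 1431191_a_at, so less likeness in its other probe sets was built in. The probe sets quoted were chosen after their values were seen. Among those not quoted, Rasgrp1 1450143_at was at -0.76 and -1.14 in these arrays. Nr3c1 1453860_s_at was at -0.15 and -0.40, and 1431378_at of that gene at 0.009 and -0.17. Beyond the median spread over all 9010 genes given above, divergence outside the family is thus shown only for genes picked in this way. Within the family the closest to 1431191_a_at after the other Syt1 probe set were Syt11 1429314_at (0.98) and 1449264_at (0.97), and the most opposed was Syt4 1415845_at (-0.95).

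Marker lists moved with these arrays, and their part in the result was not tested. The 7 measured markers of pyramidal and granule neurons averaged -0.014, 0.038 and -0.32 in p300+/- arrays, against 0.033, -0.52 and 0.19 in wild-type arrays (mean of gene values, log2). The 6 interneuron markers averaged -0.043, 0.11 and 0.24 in p300+/- and -0.0051, 0.10 and -0.048 in wild-type arrays. The mean of the neuronal list was thus low in the same 2 arrays as Syt1 1431191_a_at, and that of the interneuron list was not. The neuronal list includes Rbfox3 and Snap25, which are not particular to pyramidal and granule neurons. The lists therefore do not cleanly part those cells from interneurons. Single genes were less uniform, since 4 of the 7 neuronal and 3 of the 6 interneuron markers had their lowest value in wild-type 2. In p300+/- 3 this held for 2 neuronal and 0 interneuron markers. The 8 choroid plexus markers were at 0.15, -0.10 and 0.30 in p300+/- and -0.17, -2.49 and 0.22 in wild-type arrays, low in wild-type 2 alone. The astrocyte, oligodendrocyte, microglia, endothelial and thalamic lists kept between -0.22 and 0.27 in every array. In pooled tissue RNA, fewer cells of a type and less RNA per cell cannot be told apart, and centred values do not show whether a marker is absent.

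**Figure D4:**
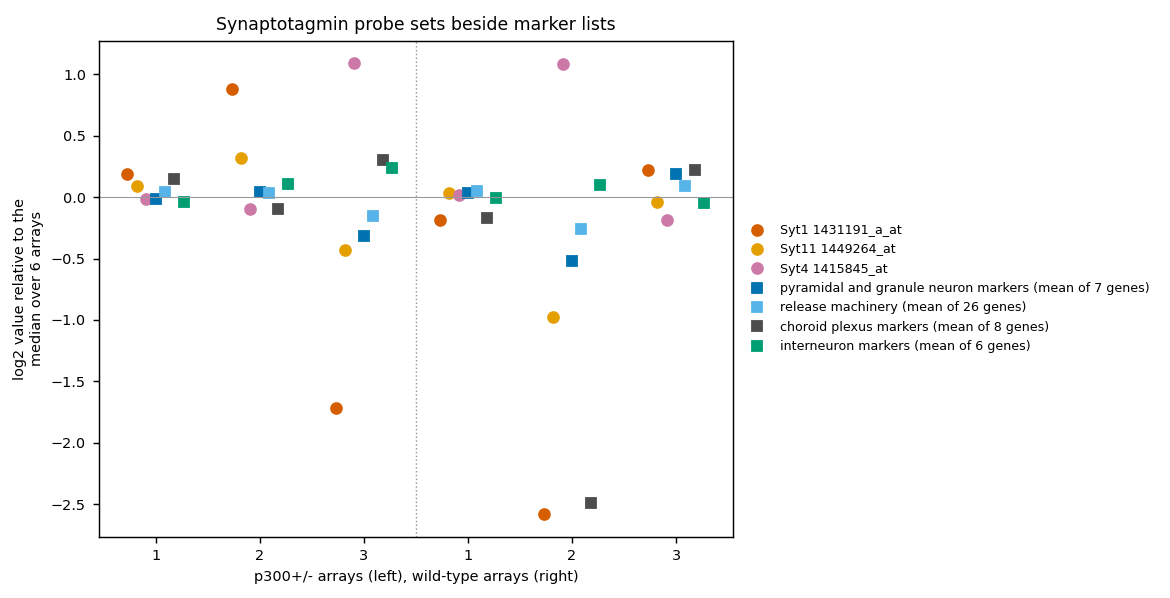
Log2 value relative to the median over the 6 arrays (vertical axis) for 3 synaptotagmin probe sets (circles) and for the mean of 4 gene lists (squares), in p300+/- arrays 1 to 3 (left) and wild-type arrays 1 to 3 (right), with points shifted sideways. Neuron markers are at -0.32 in p300+/- 3 and -0.52 in wild-type 2, where Syt1 1431191_a_at is at -1.72 and -2.58, and choroid plexus markers are at -2.49 in wild-type 2 alone.

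Genes that act with synaptotagmins were taken as 2 lists. The release machinery holds the SNAREs, complexins, active zone proteins and calcium channels on which synaptotagmins act. In it 62 probe sets of 26 genes were measured, of which 33 were higher and 29 lower in p300+/-. Past an adjusted p of 0.05 (limma) there were 0 (0% of all probe sets), with 1 at an unadjusted p under 0.05 (1.22% of all). Their median log2 fold change was 0.013, and the genotypes did not overlap in 4 of them, 2 higher and 2 lower (5.39% of all probe sets). The members with the smallest p were 1447763_at of Snap25, a SNARE of the plasma membrane, at -0.35 ± 0.135 (SE), and 1417747_at of Cplx1, a complexin that binds assembled SNAREs, at 0.50 ± 0.234. Cplx1 was at 0.18, 0.10 and 0.09 in p300+/- arrays and at -0.10, -0.96 and -0.09 in wild-type arrays, so wild-type 2 was again lowest. The list mean was 0.04, 0.03 and -0.15 in p300+/- arrays, against 0.047, -0.26 and 0.092 in wild-type arrays. Snap25 also stands in the neuron marker list.

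The other synaptotagmins and double C2 proteins gave 23 probe sets of 16 genes, 14 higher and 9 lower in p300+/-, with a median of 0.034. Of these, 0 passed and 0 reached an unadjusted p under 0.05 (limma), against 0% and 1.22% of all probe sets. The genotypes overlapped in all 23, where 5.39% of all probe sets did not overlap. With so few probe sets, nothing is read from these counts. The smallest p belonged to 1434429_at of Syt16, an atypical member, at -0.26 ± 0.176 (SE), and to 1441103_at of Esyt2, an extended synaptotagmin that tethers the endoplasmic reticulum to the plasma membrane, at 0.24 ± 0.18. Esyt2 rested on wild-type 3, at -0.63, with the other 5 arrays between -0.069 and 0.027. Across arrays this list kept between -0.074 and 0.02 in its mean.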

How the data were processed

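RNA of 6 hippocampal pools was measured on Affymetrix arrays. Per the labels' protocols the authors processed and normalized the data in GeneSpring GX, and the sources used here do not give the version, probe summarization or filters. The deposited log2 values (base assumed) are centred on each probe set's median over the 6 arrays, which was 0 within 1e-06 for all 45101. Tests covered 45037 probe sets, without 64 controls, and 34945 carried a single symbol. Symbols came from the platform annotation, updated by gene identifier, and promoters from RefSeq GRCm38.p6. The deposited values name no build, so the windows are not positions of probes.

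Each probe set was fitted with limma 3.58.1 in R 4.3.3 (lmFit, eBayes) as p300+/- minus wild-type over 6 arrays without covariates, two-sided, with Benjamini-Hochberg adjustment over all, and the fit was tested on simulated data. Standard errors and intervals are the moderated ones. The level class (2 to 4, 4 to 8 or 8 to 16) is the binary grid that holds a probe set's values, and 1.68% had none. Named were all members, Ep300, the 2 list genes with the smallest p, and the 5 genes most like the widest member. Other probe sets of these 5 were chosen after their values were seen. Members and lists were chosen with earlier results of these data known. The alternatives were other scalings, moderation, array weights, the replicate block, single arrays left out, probe set filters and gene means. Leaving out 2 arrays together was added after seeing the data. Figures were drawn with matplotlib 3.10.9.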

Additional observations from a re-analysis of the deposited data

How the results depend on the processing

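Over all alternatives run, 0 synaptotagmin probe sets and 0 of all probe sets passed an adjusted p of 0.05 (limma), and the smallest adjusted p over them was 0.9738. At an unadjusted p under 0.05 there were 550 of all probe sets, against 1632 with array weights, 1095 without p300+/- 1, 1151 without wild-type 2, 1075 without both p300+/- 3 and wild-type 2, and 392 to 699 in the other alternatives. The median fold change of the family was 0.053 after quantile normalization, 0.071 after median centring, 0.019 with array weights, 0.084 without probe sets that can bind several transcripts, 0.074 without the lowest level class and 0.086 with gene means, and ran from -0.02 (without wild-type 2) to 0.13 (without p300+/- 3) with an array left out. The count of members whose genotypes did not overlap was 1 (5.39% of all probe sets). Without p300+/- 1, 2 or 3 it was 2, 3 and 7, where 13.2%, 15.1% and 13.2% of all probe sets did not overlap. Without wild-type 1, 2 or 3 it was 2, 3 and 1, beside 12.1%, 18.1% and 12.9% of all. Without both p300+/- 3 and wild-type 2 it was 9 (28.3% of all). Fewer arrays overlap less often by construction. The median spread among probe sets of a gene, 0.338, ran from 0.304 to 0.369 over its alternatives. Quantile normalization turned the sign of 1 of the 26 fold changes (Syt9), array weights of 3 (Syt3, Syt6 1426106_a_at and Syt9), and single arrays left out of 2 to 10, most for wild-type 2. With the replicate number as a block, the median stayed 0.073 and 0 members passed. The numbers share no stated litter or batch, and deviations of same-numbered arrays correlated at 0.609, -0.23 and -0.468, so they were not taken as pairs; p300+/- 3 went best with wild-type 2 (0.648). A spread over 3 arrays and values without levels limit what can be seen.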
